A study of Mus musculus with 24 samples.

Results

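The 7 genes described here encode 3 receptors of the steroid hormone family (Nr3c1, the glucocorticoid receptor; Nr3c2, the mineralocorticoid receptor; Esr1, estrogen receptor α), an enzyme that makes active glucocorticoid (Hsd11b1), 2 receptor coactivators (Ncoa1 and Ncoa2) and a receptor corepressor (Ncor1). Peaks of acetylated lysine 27 of histone H3 (H3K27ac, a mark of active promoters and enhancers) were assigned to them when they overlapped a gene body by at least 1 bp or lay within 10 kb of a RefSeq transcription start. The 7 genes are part of 21000 protein-coding genes with a curated RefSeq start in mm10, and their windows span 1563 kb. They held 13 to 112 of the 17482 to 123249 peaks of a list.

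H3K27ac ChIP-Seq was performed on myofibers isolated with collagenase from the quadriceps of C57BL/6J mice, males and females, that were 10 weeks old when treatment began. Vehicle mice received DMSO. Weekly prednisone mice received 5 weekly injections of 1 mg/kg over 4 weeks, with vehicle on the other days, and muscle was taken 4, 6 or 8 days after the last injection. Each of the 8 groups (vehicle, day 4, day 6 and day 8 in each sex) had 2 H3K27ac libraries and 1 input library, and the authors deposited 1 peak list per group. With 1 list per group, differences between groups could not be set against replicate error or tested, and intervals cover counting error only.

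Steroid receptors are transcription factors that are held by chaperones until a hormone binds them, and that then occupy DNA and recruit coactivators with histone acetyltransferase activity. Prednisone itself is inactive, and the Hsd11b1 enzyme reduces it to prednisolone, which binds the glucocorticoid receptor and, also, the mineralocorticoid receptor. The proteins of Ncoa1 and Ncoa2 bridge hormone-bound receptors to acetyltransferases. The Ncor1 protein recruits histone deacetylase to receptors and other factors, and in muscle it is known as a brake on oxidative metabolism.

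The lists differed in depth, from 7.52 M H3K27ac tags at male day 4 to 50.5 M at male day 6, and in the tags inside peaks, from 5.39% at male day 6 to 47.3% at female day 6. As a check of the labelled tissue, 8 of 8 myofiber markers had a peak within 1 kb of a start in 7 lists, against 6 of 8 at male day 4. Of 14 markers of satellite cells, fibroblasts, endothelium, immune cells and adipocytes, 6 had a start peak in male vehicle, 2 at male day 4, 4 at male day 6 and 1 at male day 8. In females these were 2 in vehicle, 8 on day 4, 8 on day 6 and 10 on day 8. They included 3 of 3 fibroblast markers and 3 of 3 endothelial markers at female days 4, 6 and 8, against 1 of 3 of each in female vehicle. Endothelial markers were also 3 of 3 in male vehicle and at male day 6. At female days 4, 6 and 8, satellite cell markers were 1, 1 and 2 of 2. Immune markers were 1 of 3 on each of these days, and adipocyte markers 0, 0 and 1 of 3. The 14 markers were most often called in male vehicle and at female days 4, 6 and 8, the 4 longest lists, and their part in the values below was not tested. A peak from fewer acetylated nuclei cannot be told apart from a peak with less acetylation per nucleus.

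The 7 genes together held 47 peaks in male vehicle, 13 at male day 4, 30 at male day 6 and 19 at male day 8. In females they held 40 peaks in vehicle, 58 on day 4, 112 on day 6 and 81 on day 8. Peaks were thus fewest in males on day 4, the list with the lowest depth, and most numerous in females on day 6. With every list cut to its 17482 peaks of highest findPeaks score, the 7 genes held 9 to 18 peaks in each, and with a cut by normalized tags, chosen after seeing the data, 8 to 17. Per 100 kb, the genes held 3.01, 0.832, 1.92 and 1.22 peaks in the male lists in the same order, and 2.56, 3.71, 7.16 and 5.18 in the female lists. The 5057 protein-coding genes between 42.4 and 394 kb long, the length range of the 7 genes, held 5.51, 1.02, 2.13 and 1.21 peaks per 100 kb in the male lists and 2.33, 4.74, 8.7 and 6.02 in the female lists. Density at the 7 genes was above that of the length range in female vehicle, about equal to it at male day 8 and below it in the other 6 lists. Per gene, the median of the 7 was 7, 2, 4 and 2 peaks in the male lists and 6, 6, 17 and 13 in the female lists. In the length range the median was 4, 1, 2 and 1 in the male lists and 2, 4, 7 and 4 in the female lists, lower in every list. Lengths within the range were not matched to the 7 genes, so density and peaks per gene need not agree.

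**Figure D1:**
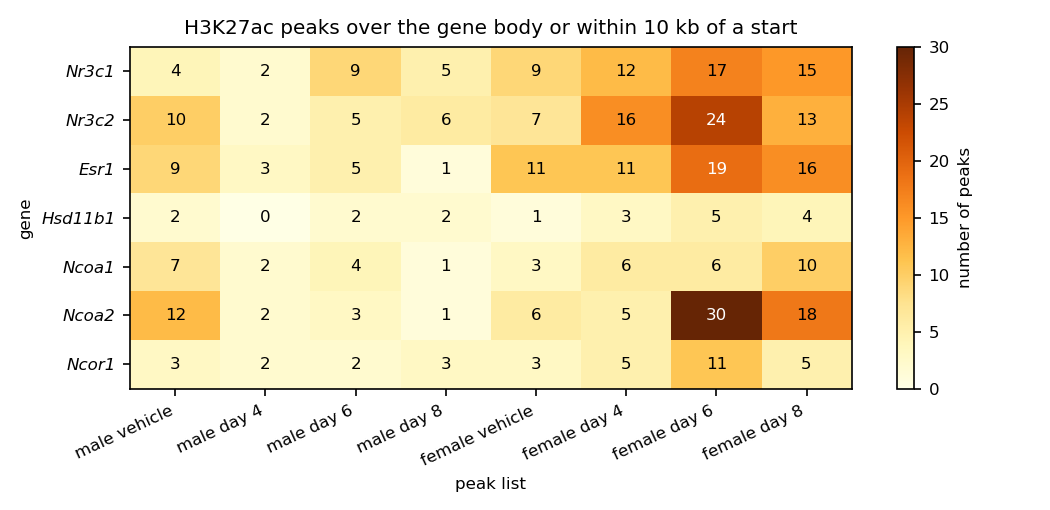
Number of H3K27ac peaks of each gene (rows) in each of the 8 lists (columns), counted over the gene body or within 10 kb of a start. Ncoa2 had the most peaks, 30, at female day 6, and Hsd11b1 had 0 at male day 4.

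Every gene had at least 1 peak in 7 lists, and Hsd11b1 had none at male day 4. Among genes of that length range, a peak by the same rule was found in 91.1% of genes in male vehicle, 60.2% at male day 4, 72.7% at male day 6 and 65.1% at male day 8. The shares in females were 79.6% in vehicle, 90.1% on day 4, 93.4% on day 6 and 89.5% on day 8. A peak somewhere in the window was therefore common for genes this long, and the starts were examined separately.

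A start was counted as acetylated when a peak lay within 1 kb of any of a gene's RefSeq starts. Of the 7 genes, 7 were acetylated at a start in male vehicle, 5 at male day 4, 4 at male day 6 and 4 at male day 8. Of all protein-coding genes, 54.9%, 31.8%, 32.0% and 35.5% were. In females, 4 genes were acetylated at a start in vehicle, 6 on day 4, 7 on day 6 and 7 on day 8, beside 29.5%, 54.3%, 69.9% and 62.5% of all genes. Nr3c1, Ncoa2 and Ncor1 had a start peak in all 8 lists, as did 16.7% of all genes. Esr1 had one in 7 lists, Nr3c2 and Ncoa1 in 5 lists each, and Hsd11b1 in 3 lists. With each list cut to its 17482 peaks of highest findPeaks score, Nr3c1, Ncor1 and Ncoa2 had a start peak in 6 lists, Esr1 in 5, Ncoa1 in 4, Nr3c2 in 3 and Hsd11b1 in 1. The cut by normalized tags instead left Nr3c1 and Ncor1 with a start peak in 8 lists, Ncoa2 in 7, Esr1 and Nr3c2 in 5, Ncoa1 in 3 and Hsd11b1 in 0.

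**Figure D2:**
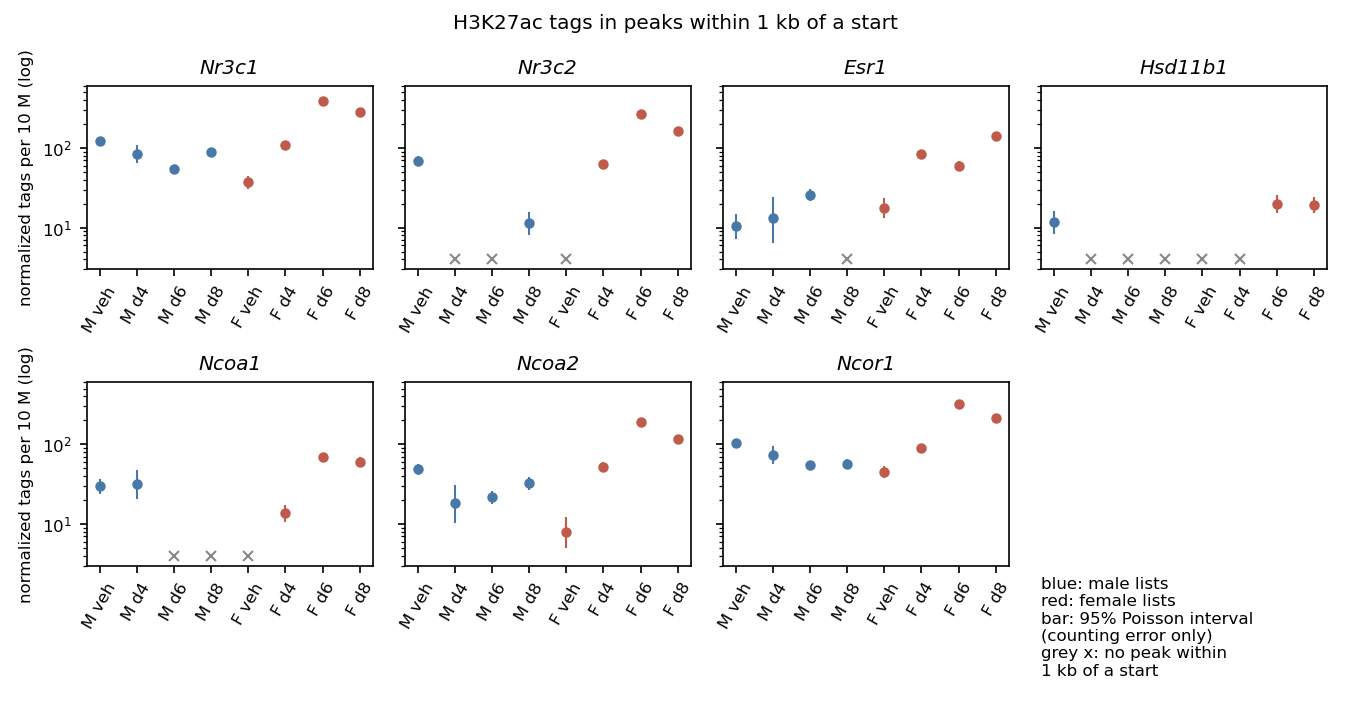
Normalized H3K27ac tags per 10 M (logarithmic axis) in peaks within 1 kb of a start of each gene, by list, with males in blue and females in red; bars are exact 95% Poisson intervals of counting error and grey crosses mark lists with no such peak. Nr3c1, Ncoa2 and Ncor1 have points in all 8 lists, and Hsd11b1 in 3 lists at no more than 19.9.

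Nr3c1 encodes the receptor through which prednisolone acts. The gene lies on the minus strand of chromosome 18 (39410545 to 39519421, mm10) and has 5 RefSeq starts. A cluster of 4 starts lay under a region of peaks from 39488092 to 39492385 in all 8 lists. In female vehicle the peak came within 1 kb of 2 of these 4 starts. The most upstream start, at 39519421, had no peak within 1 kb in any list. At the cluster, normalized tags were 122 in male vehicle (95% Poisson interval 110 to 135), 85.1 at male day 4 (65.6 to 109), 55.0 at male day 6 (48.7 to 61.9) and 88.2 at male day 8 (78.2 to 99.1). In females they were 37.1 in vehicle (30.2 to 45.0), 108 on day 4 (99.0 to 118), 394 on day 6 (372 to 416) and 283 on day 8 (266 to 300). Male vehicle was above the 3 treated male lists and female vehicle was below the 3 treated female lists. Fold over input ran from 4.13 in female vehicle to 68.5 at female day 6.

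Part of that spread was shared with other genes. A total of 3499 protein-coding genes had a start peak in all 8 lists, and the median of their start tags was 60.1, 34.6, 30.1 and 28.1 in the male lists and 25.4, 59.6, 238 and 140 in the female lists. At female day 6 Nr3c1 was at 10.6 times its level in female vehicle (8.67 to 13.1), and the median of these genes at 9.37 times. At male day 6 Nr3c1 was at 0.452 of its vehicle level (0.386 to 0.528), and the median at 0.501. On day 8 Nr3c1 was at 0.725 of vehicle in males (0.619 to 0.847) and at 7.63 times vehicle in females (6.23 to 9.44). The median was at 0.468 and 5.51, below both intervals. These intervals cover the counting error of Nr3c1 and not how far single genes scatter around the median. On day 4 Nr3c1 was at 0.699 in males (0.528 to 0.913) beside a median of 0.576, and at 2.92 times in females (2.35 to 3.64) beside 2.35. Set against that median in each list, Nr3c1 was at 2.03, 2.46, 1.83 and 3.14 times the median in the male lists and at 1.46, 1.81, 1.65 and 2.02 times in the female lists. It was above the median of these genes in 8 of 8 lists, at the 71.6 percentile in female vehicle and up to the 96.8 percentile at male day 8.

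**Figure D3:**
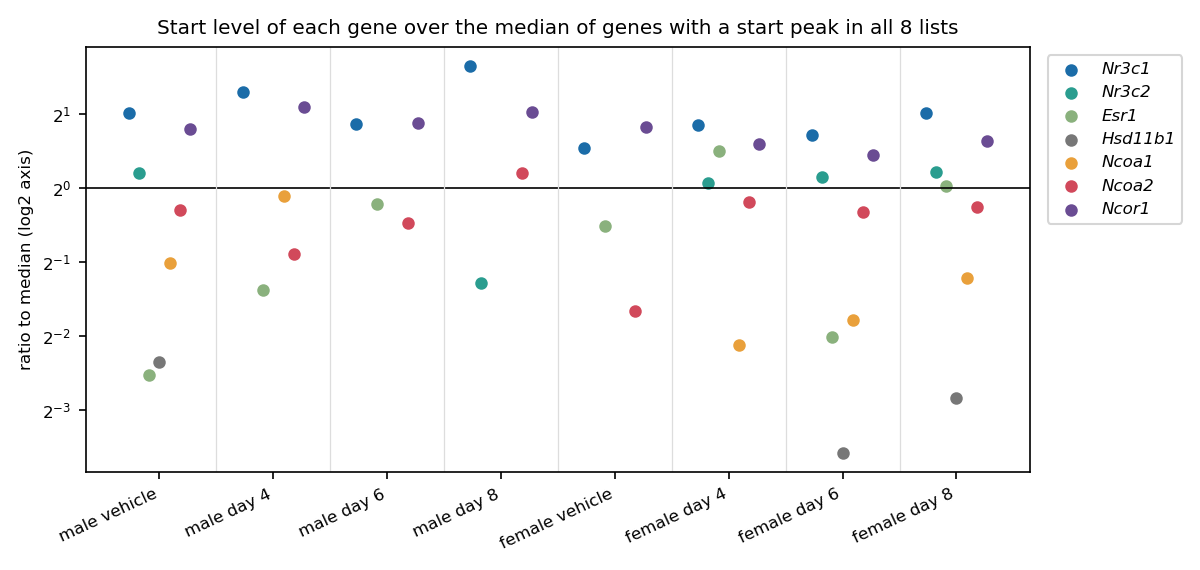
Start tags of each gene divided by the median of the 3499 genes with a start peak in all 8 lists, on a log2 axis, by list; a gene with no start peak in a list has no point. Nr3c1 and Ncor1 lie above the line at 1 in all 8 lists, and Hsd11b1 lies at no more than 0.195 in its 3 lists.

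The width of the called peaks also differed. The peaks at the Nr3c1 starts covered 3.68, 2.54, 2.45 and 4.00 kb in the male lists and 1.13, 4.25, 3.56 and 3.79 kb in the female lists. Per kb of peak, normalized tags were 33.1, 33.6, 22.4 and 22.1 in the male lists and 32.9, 25.4, 110 and 74.6 in the female lists. Female vehicle was thus lower than female day 4 in summed tags and higher in tags per kb. At female days 6 and 8 the values were higher than in vehicle by either measure.

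Within Nr3c1, another region of peaks lay 1.65 kb inside the gene from the nearest start, over an exon (39485949 to 39487631). It was present in 6 lists, without male vehicle and male day 4, and its tags ran from 5.92 at male day 8 to 42.1 at female day 6. Further in, 57.2 and 60.4 kb from the nearest start, 2 regions had a peak in the 4 female lists and in no male list. Tags in the intronic region (39430507 to 39432063) were 8.72 in female vehicle, 4.90 on day 4, 21.2 on day 6 and 27.4 on day 8. In the exonic region (39427057 to 39428852) they were 7.27, 19.4, 7.51 and 13.6. In the same order, the median peak at the 7 genes held 9.63, 6.23, 9.30 and 8.81 normalized tags in the female lists, and the weakest held 5.09, 4.90, 4.90 and 4.28. The intronic region was thus above the median on days 6 and 8, and the exonic region on days 4 and 8.

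Nr3c2 encodes the mineralocorticoid receptor, which binds aldosterone and also glucocorticoids. It lies on the plus strand of chromosome 8 (76902330 to 77245012) and has 1 RefSeq start. A region from 76898415 to 76903004 had a peak in all 8 lists, yet the peak came within 1 kb of the start in only 5 of them. The region also overlaps the long noncoding gene Gm10649, which runs the other way and whose start lies in the region or within 1 kb of it. The tags of Nr3c2 and Gm10649 cannot be told apart. In the region, tags were 68.9 in male vehicle, 30.6 on day 4, 13.6 on day 6 and 28.0 on day 8. In females they were 11.6 in vehicle, 62.3 on day 4, 265 on day 6 and 162 on day 8. In males vehicle had the highest value and day 6 the lowest, and in females the 3 treated lists were above vehicle.

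The position of the Nr3c2 peaks differed between lists. In male vehicle the peak ended 0.431 kb before the start, at male day 4 it ended 2.11 kb before it and at male day 6 it ended 2.33 kb before it. Male day 8 had 2 peaks, the nearer of which ended 0.272 kb before the start. In female vehicle the peak ended 1.35 kb before the start. At female days 4, 6 and 8 a single peak ran from 3.92, 3.73 and 3.70 kb before the start to 0.364, 0.455 and 0.674 kb after it. The start base itself was therefore inside a peak only in the 3 treated female lists. Across the 7 genes, the start base was inside a peak for 4 genes in each of male vehicle, day 4 and day 6 and for 3 at male day 8, beside 40.0%, 20.5%, 20.2% and 26.0% of all genes. In females this held for 0 genes in vehicle, 5 on day 4, 7 on day 6 and 7 on day 8, beside 15.2%, 45.9%, 62.7% and 56.3% of all genes. In female vehicle, the peaks at Nr3c1, Esr1, Ncoa2 and Ncor1 all stopped short of the start base.

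**Figure D4:**
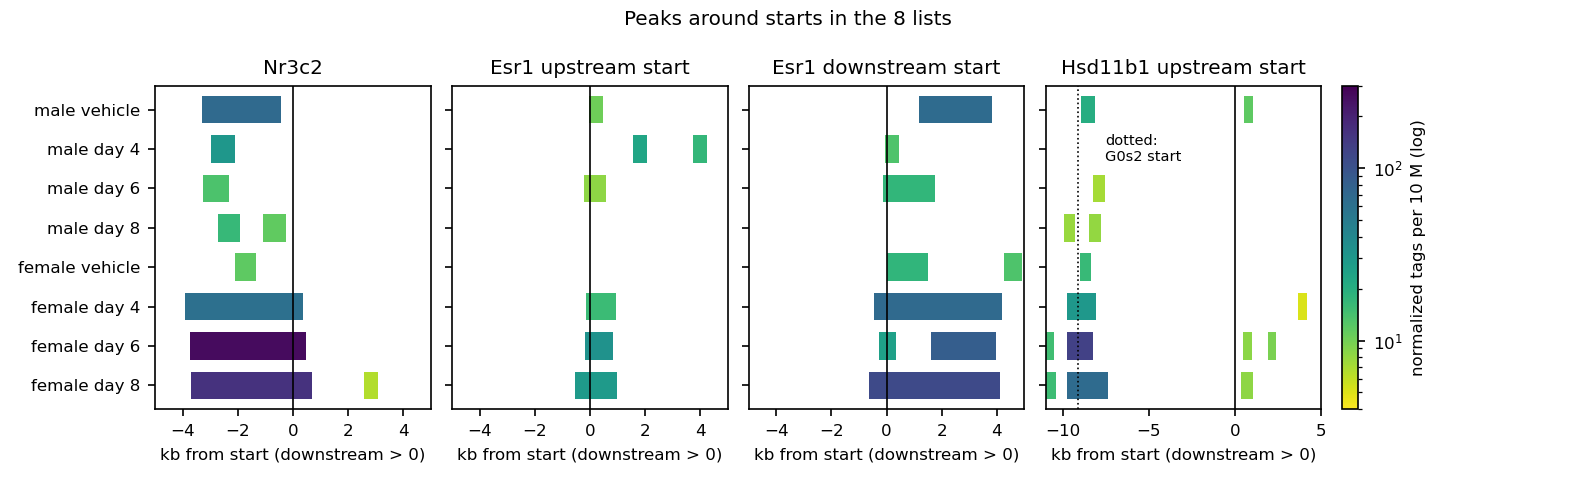
Peaks around the start of Nr3c2, both starts of Esr1 and the upstream start of Hsd11b1 in the 8 lists, in kb from the start (positive values lie inside the gene), colored by normalized tags on a logarithmic scale; the dotted line in the Hsd11b1 panel marks the start of G0s2. The Nr3c2 peaks cross the start at female days 4, 6 and 8, and 7 lists have a peak within 1 kb of the G0s2 start.

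Relative to the 3499 genes, the Nr3c2 start level was 1.15 times the median in male vehicle, 0.409 times at male day 8, and 1.05, 1.11 and 1.16 times at female days 4, 6 and 8. The male day 8 value counts only the nearer of 2 peaks. Together the 2 peaks held 28.0 tags, beside a median of 28.1, so this value rests on the 1 kb limit. The female days, at which normalized tags ranged from 62.3 to 265, were thus close to each other on this scale. Inside the gene, an intronic region 230 kb from the start (77132409 to 77134975) had a peak in 6 lists, all but male vehicle and male day 4. Its tags were 5.74 and 5.92 at male days 6 and 8 and 24.0, 31.7, 73.8 and 43.3 in the female lists. A region 128 kb inside the gene (77030607 to 77031780) had peaks in the 4 female lists alone, with 8.78 to 16.0 tags.

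Esr1 encodes estrogen receptor α, the receptor of estradiol. It lies on the plus strand of chromosome 10 (4611989 to 5005633), is the longest of the 7 genes at 393.6 kb, and has 2 RefSeq starts, at 4611989 and at 4710158. The promoters of both starts (RefSeq, GRCm38.p6, plus strand) are shown because they were acetylated in different lists. Capitals mark the CG dinucleotides, and the start is base 50 counted from the 3′ end.
Esr1 upstream, chr10:4611739-4612038: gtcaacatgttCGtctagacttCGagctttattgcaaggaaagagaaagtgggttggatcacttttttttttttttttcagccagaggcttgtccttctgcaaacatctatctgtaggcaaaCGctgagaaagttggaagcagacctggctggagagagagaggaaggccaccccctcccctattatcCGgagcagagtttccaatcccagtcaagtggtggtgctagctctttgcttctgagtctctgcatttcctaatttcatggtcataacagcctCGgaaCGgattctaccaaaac
Esr1 downstream, chr10:4709908-4710207: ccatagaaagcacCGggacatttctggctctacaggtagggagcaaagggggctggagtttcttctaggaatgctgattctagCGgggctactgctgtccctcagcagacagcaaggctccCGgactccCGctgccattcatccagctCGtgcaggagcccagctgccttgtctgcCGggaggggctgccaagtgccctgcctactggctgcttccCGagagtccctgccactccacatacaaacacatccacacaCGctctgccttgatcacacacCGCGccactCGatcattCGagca
The upstream promoter holds 6 CG dinucleotides and the downstream promoter 12.

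The upstream Esr1 start had a peak in 5 lists. Its tags were 10.4 in male vehicle, 8.31 at male day 6, 15.9 at female day 4, 33.3 at female day 6 and 29.0 at female day 8. Male days 4 and 8 and female vehicle had no peak within 1 kb of it. The downstream start lay in a region (4709508 to 4714323) with a peak in 7 lists. Its tags were 67.0 in male vehicle, 13.3 at male day 4 and 17.6 at male day 6, with no peak at male day 8. In females they were 17.8 in vehicle, 68.8 on day 4, 110 on day 6 and 113 on day 8. The downstream region, counted whole, was higher in summed tags than the upstream start in all 5 lists that had both, by 2.12 to 6.44 times. The downstream peaks also covered more kb in all 5 lists. At female day 4 the upstream peak ran from 0.13 kb before its start to 0.936 kb after it. The downstream peak ran from 0.444 kb before its start to 4.17 kb after it. At male day 6 the downstream peak had fewer tags per kb than the upstream peak, and at female day 4 about as many. In the other lists with both it had more. In male vehicle the downstream peak began 1.16 kb after the start, and so did not count as a peak at the start. At female day 6 the region held a peak over the start with 25.8 tags and another, from 1.61 kb after it, with 83.9. Within 1 kb, the downstream start was thus below the upstream start (33.3) in that list. At male day 6 and female days 4 and 8 it was above. The summed Esr1 start level, which counts peaks within 1 kb only, was 59.1 at female day 6 and 10.4 in male vehicle.

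Esr1 had 1 peak in all at male day 8, against 9 in male vehicle, 3 at male day 4 and 5 at male day 6. It had 11 in female vehicle, 11 on day 4, 19 on day 6 and 16 on day 8. An intronic region 8.38 kb from the upstream start (4620365 to 4622723) had a peak in 6 lists, with 57.6 tags in male vehicle, 9.69 at male day 6, and 20.7, 22.1, 40.5 and 55.2 in the female lists. Another in the gene's interior (4837717 to 4838884), 128 kb from the nearest start, had peaks in the 4 female lists alone, with 5.92 to 17.3 tags. With the 3 described in Nr3c1 and Nr3c2, 4 regions at the 7 genes had a peak in all 4 female lists and in no male list, out of 232 merged regions (1.72%), beside 0.238% of all merged regions. No region had a peak in all 4 male lists and no female list, here or among all regions (0.0%). Peaks in at least 2 female lists and no male list were found in 38 regions (16.4%, beside 10.3% of all regions), and peaks in at least 2 male lists and no female list in 2 regions (0.862%, beside 0.28% of all regions).

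Hsd11b1 encodes the reductase that regenerates active glucocorticoid inside cells, and so converts prednisone to prednisolone. It lies on the minus strand of chromosome 1 (193221640 to 193264045) and has 2 RefSeq starts, at 193264045 and 193242360. Of these, the downstream start has a promoter in the sequence table (RefSeq, GRCm38.p6, minus strand), shown because it was acetylated in 2 lists alone. Capitals mark its 6 CG dinucleotides.
Hsd11b1, chr1:193242311-193242610: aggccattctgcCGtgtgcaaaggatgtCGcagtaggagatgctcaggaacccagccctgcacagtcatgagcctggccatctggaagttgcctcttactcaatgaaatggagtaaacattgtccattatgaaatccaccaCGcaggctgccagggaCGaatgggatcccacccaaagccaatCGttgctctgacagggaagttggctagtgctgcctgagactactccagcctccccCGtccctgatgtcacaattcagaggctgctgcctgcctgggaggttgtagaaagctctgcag

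Hsd11b1 had a start peak in the fewest lists of the 7 genes. The downstream start had 11.4 tags at female day 6 and 11.1 at female day 8 and no peak in the other 6 lists. A region that began 0.341 kb inside the upstream start had 11.7 tags in male vehicle, 8.49 at female day 6 and 8.31 at female day 8. Summed over the starts of the gene, the level was 0.195 times the median of the 3499 genes in male vehicle, 0.0834 times at female day 6 and 0.139 times at female day 8. No peak lay at either start at male days 4, 6 and 8, in female vehicle or at female day 4. Of all genes, 8.39% had a start peak at female days 6 and 8 and none in female vehicle and on day 4, as Hsd11b1 did.

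The peaks most often found in the Hsd11b1 window lay over another gene. A region from 193271417 to 193273957 had a peak in 7 lists, all but male day 4. It covers G0s2 (193272160 to 193273188), which encodes an inhibitor of fat breakdown and whose start is 9.14 kb from the Hsd11b1 start. Its tags were 20.2 in male vehicle, 7.12 at male day 6, 15.9 at male day 8, 16.4 in female vehicle, 30.2 at female day 4, 131 at female day 6 and 67.2 at female day 8. Without peaks within 1 kb of the G0s2 start, the number of Hsd11b1 peaks went from 2 to 1 in male vehicle and at male day 6, from 2 to 0 at male day 8, from 1 to 0 in female vehicle, from 3 to 2 at female day 4, from 5 to 4 at female day 6 and from 4 to 3 at female day 8. The largest values assigned to Hsd11b1 by distance were therefore those of the G0s2 region.

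Ncoa1 encodes a coactivator of steroid receptors. It lies on the minus strand of chromosome 12 (4247362 to 4477182), with 1 RefSeq start. Start tags were 29.7 in male vehicle (24.0 to 36.4) and 32.0 at male day 4 (20.5 to 47.5), whose intervals overlap, and no start peak was found at male days 6 and 8. No start peak was found in female vehicle, and tags were 13.7 at female day 4 (10.6 to 17.4), 68.9 on day 6 (59.9 to 78.9) and 60.4 on day 8 (53.0 to 68.6). Both directions were common among all genes. A start peak in male vehicle and none at male days 6 and 8, as for Ncoa1 and Hsd11b1, was found in 16.2% of genes. A start peak at female days 4, 6 and 8 and none in female vehicle, as for Ncoa1 and Nr3c2, was found in 23.8%. In male vehicle and at male day 4, 2 peaks flanked the start, from 0.658 and 0.664 kb before it to 1.43 and 1.20 kb after it. At female days 6 and 8 a single peak spanned the start.

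Inside Ncoa1, a region over an exon near the 3′ end, 223 kb from the start (4252991 to 4254368), had a peak in male vehicle (18.7 tags) and in the 4 female lists (12.0, 6.53, 7.18 and 19.9 tags). An intronic region 44.6 kb from the start (4429863 to 4432556) had 15.8 tags in male vehicle, 5.74 at male day 6, 14.5 at female day 4, 49.3 at female day 6 and 13.1 at female day 8.

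Ncoa2, a coactivator of the same family, lies on the minus strand of chromosome 1 (13139105 to 13374083), with 2 starts 1.65 kb apart under a single region (13371498 to 13374973). Start tags were 49.0 in male vehicle (41.6 to 57.4), 18.6 at male day 4 (10.2 to 31.2), 21.6 at male day 6 (17.7 to 26.0) and 32.4 at male day 8 (26.5 to 39.3). In females they were 7.99 in vehicle (5.01 to 12.1), 52.5 on day 4 (46.3 to 59.3), 191 on day 6 (176 to 207) and 117 on day 8 (106 to 128). Female vehicle was the lowest of the 8 lists, and its peak was 0.501 kb wide, against 3.16, 2.87 and 3.08 kb at the later female days. Ncoa2 was at 6.57 times its vehicle level at female day 4 (4.24 to 10.7), 23.9 times on day 6 (15.6 to 38.4) and 14.6 times on day 8 (9.54 to 23.6). The median of the 3499 genes was at 2.35, 9.37 and 5.51 times, below the 3 intervals. As for Nr3c1, the intervals do not cover how far single genes scatter around the median. In males Ncoa2 was at 0.380 (0.203 to 0.657), 0.440 (0.341 to 0.566) and 0.661 (0.511 to 0.853) of vehicle on days 4, 6 and 8, and the median, at 0.576, 0.501 and 0.468, was below the interval on day 8 alone. Per kb of peak, Ncoa2 had 15.9 tags in female vehicle, 16.6 on day 4, 66.4 on day 6 and 38.0 on day 8. Each of these days thus differed from vehicle by a larger factor in peak width than in tags per kb. The vehicle peak held 22 tags as counted.

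Ncoa2 also had the widest range in number of peaks, 12 in male vehicle, 2, 3 and 1 at male days 4, 6 and 8, 6 in female vehicle, and 5, 30 and 18 at female days 4, 6 and 8. Of its 50 merged regions, 37 were found in 1 list. An intronic region 183 kb from the nearest start (13187447 to 13189591) had a peak in 4 lists, with 18.7 tags in male vehicle, 5.09 in female vehicle, 20.6 at female day 6 and 17.4 at female day 8.

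Ncor1 encodes a corepressor that brings histone deacetylase to nuclear receptors. It lies on the minus strand of chromosome 11 (62316426 to 62457332) and has 2 RefSeq starts, of which the upstream start (62457332) was acetylated in 8 of 8 lists and the downstream start (62438515) in 0 of 8. Both promoters are shown (RefSeq, GRCm38.p6, minus strand) for this contrast, with CG dinucleotides in capitals.
Ncor1 upstream, chr11:62457283-62457582: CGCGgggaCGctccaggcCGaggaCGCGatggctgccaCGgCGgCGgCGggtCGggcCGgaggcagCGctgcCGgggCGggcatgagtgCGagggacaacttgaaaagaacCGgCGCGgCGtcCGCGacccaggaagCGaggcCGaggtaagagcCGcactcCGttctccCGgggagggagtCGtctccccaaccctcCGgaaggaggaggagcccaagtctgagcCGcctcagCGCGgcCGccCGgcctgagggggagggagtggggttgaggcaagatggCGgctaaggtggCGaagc
Ncor1 downstream, chr11:62438466-62438765: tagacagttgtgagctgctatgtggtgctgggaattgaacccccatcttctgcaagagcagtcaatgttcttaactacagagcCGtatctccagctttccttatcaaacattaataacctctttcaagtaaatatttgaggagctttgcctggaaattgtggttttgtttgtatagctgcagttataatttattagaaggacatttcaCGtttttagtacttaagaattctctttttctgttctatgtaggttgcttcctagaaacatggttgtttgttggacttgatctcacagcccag
The upstream promoter holds 36 CG dinucleotides and the downstream promoter 2.

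Start tags at Ncor1 were 104 in male vehicle (93.4 to 116), 74.5 at male day 4 (56.3 to 96.7), 55.3 at male day 6 (49.1 to 62.3) and 57.4 at male day 8 (49.4 to 66.3). In females they were 45.1 in vehicle (37.5 to 53.7), 90.3 on day 4 (82.0 to 99.1), 324 on day 6 (304 to 345) and 217 on day 8 (203 to 232). On the scale of the 3499 genes, Ncor1 ranged from 1.36 to 2.15 times the median over the 8 lists, the narrowest range of the 3 genes with a start peak in all lists. Nr3c1 ranged from 1.46 to 3.14 times and Ncoa2 from 0.315 to 1.15 times. The region at the start (62455850 to 62459922) also covers the start of Pigl, an enzyme of glycolipid anchor synthesis, which lies 1.11 kb away and is transcribed in the other direction. The tags of the pair cannot be told apart. Away from the start, no region in Ncor1 had a peak in more than 2 lists.

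The 232 merged regions at the 7 genes comprised 9 over or within 1 kb of a start, 27 over another exon, 193 in introns and 3 in the 10 kb flanks. Of these, 160 (69.0%) were found in 1 list and 4 (1.72%) in all 8, beside 70.6% and 1.7% of the 250070 regions merged over the whole lists. The 4 regions in all 8 lists were those at the starts of Nr3c1, Ncoa2 and Ncor1 and that at Nr3c2 and Gm10649. The last had a peak within 1 kb of the Nr3c2 start in 5 lists. Regions found in 1 list had a median of 7.92 tags (4.28 to 28.5), and none of them was at a start. The 13 regions found in 5 or more lists had a highest value of 19.9 to 394 tags (median 73.8), and 7 of them were at starts.

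Prednisone-responsive enhancers (PREs) were the day 4 peaks that no vehicle peak of that sex overlapped. In males, 5 of the 13 day 4 peaks at the 7 genes were PREs (38.5%, exact 95% interval 13.9% to 68.4%, beside 45.4% of all male day 4 peaks). Esr1 had 3 of them, and Nr3c2 and Ncoa2 had 1 each, with 12.0 to 23.9 normalized tags per peak, or 9 to 18 tags as counted. The male PRE with a peak on day 6 was that over the downstream Esr1 start (4710099 to 4710599), and none of the 5 had a peak on day 8. Across all male PREs, 5.84% had a peak on day 6, 5.01% on day 8 and 1.7% at both. This Esr1 PRE lay within 1 kb of a vehicle peak, as did that in Ncoa2.

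Of the 58 day 4 peaks in females, 45 were PREs (77.6%, 64.7% to 87.5%, beside 81.9% of all female day 4 peaks). Nr3c2 had 13, Nr3c1 9, Esr1 8, Ncoa1 5, Ncoa2 and Ncor1 4 each, and Hsd11b1 2. Of the 45, 17 had a peak on day 6 (37.8%, 23.8% to 53.5%), 13 on day 8 (28.9%, 16.4% to 44.3%) and 11 at both (24.4%, 12.9% to 39.5%). Across all female PREs these shares were 50.3%, 43.6% and 37.7%. All 3 shares at the 7 genes were lower, and each of the 3 intervals includes the share of all female PREs. The 3 shares rest on overlapping PREs, and the intervals take PREs as independent, so no conclusion is drawn from this. With lists cut to equal length by score, PREs at the 7 genes numbered 10 in males and 13 in females, and by normalized tags 8 and 5, so that the order of the sexes turned with the cut.

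The 11 female PREs with a peak at both later days were 3 in Nr3c1, 3 in Esr1, 2 in Nr3c2, 2 in Ncoa1 and 1 in Ncoa2. Those at starts were the upstream Esr1 start, with 15.9 tags on day 4, and the Ncoa1 start, with 13.7. The PRE with the most tags, 27.2, lay in an Nr3c2 intron 68.7 kb from the start (76971018 to 76973816 as merged), with 25.2 to 32.0 tags over female days 4, 6 and 8. Another Nr3c2 intronic region, 13.5 kb from the start (76915872 to 76917066), had 8.58 to 19.4 tags. In Esr1, regions 6.21 kb (4618202 to 4619551) and 69.6 kb (4779747 to 4781367) from the nearest start had 6.13 to 24.7 and 5.51 to 22.9 tags. In Ncoa1 the intronic region 44.6 kb from the start was among them. In Ncoa2 it was a region 47.0 kb from the start (13324647 to 13325466) with 4.90 to 12.7 tags. In Nr3c1 the 3 were intronic, 5.09, 12.9 and 57.2 kb from the nearest start, and on day 4 held 4.90 to 9.19 tags. The last of these is the region described above that also had a vehicle peak, which the day 4 peak did not overlap. The median female PRE at the 7 genes had 5.72 normalized tags, or 28 tags as counted, so most were near the weakest peaks of the list.

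Base composition was compared with the number of lists that called a start. The sequence table held 7 promoters of 5 of the genes, and Nr3c1 and Ncoa2 had no entry. Over all 32817 promoters of 300 bases in the table, the median number of CG dinucleotides was 3 where no list had a peak within 1 kb of the start, and 24 where all 8 lists had one. The Ncor1 promoters, with 2 and 36, lay on the respective sides of these medians. Ncoa1 went the other way, with 49 CG dinucleotides, more than 99.0% of promoters have, and a peak in 5 lists. The Nr3c2 promoter held 17, also with a peak in 5 lists, for which the median was 19. The upstream Esr1 promoter held 6 with a peak in 5 lists, below the first quartile of 10.

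**Figure D5:**
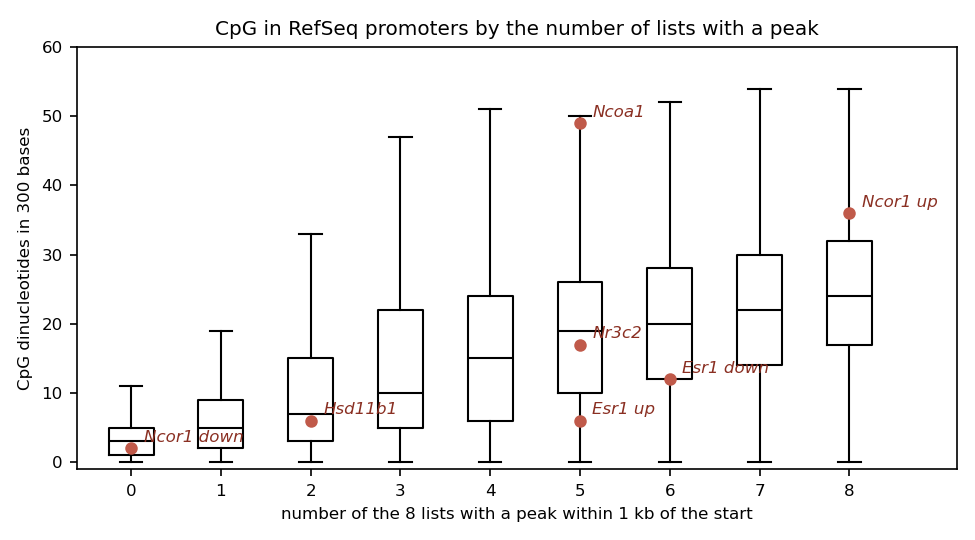
CG dinucleotides in 300 bases around a start, by the number of lists with a peak within 1 kb of it; boxes give the median and quartiles of all 32817 promoters and whiskers reach 1.5 times the box height at most, and red points are the 7 promoters of the members. Ncoa1, with 49 in 5 lists, and Ncor1 upstream, with 36 in 8 lists, are the highest points.

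Motifs of the receptors were counted on both strands in the 232 regions. The palindromic glucocorticoid response element (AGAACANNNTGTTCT) had 0 matches, and 0.0292% of all 249990 regions on assembled chromosomes held it. The palindromic estrogen response element (GGTCANNNTGACC) also had 0 matches, beside 0.169% of all regions. The inner letters of the first, ACANNNTGT, were found 56 times, 0.302 per kb, in 47 regions (20.3%), beside 0.327 per kb and 24.3% of all regions. These motifs are their own reverse complement, and every match of the first contains the inner letters. None of the 7 promoters held any of the 3, which 6.85% (inner letters), 0.00914% (glucocorticoid) and 0.0701% (estrogen) of all promoters did. No match says only that these letters were not in the windows.

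The starts of 28 other genes of steroid receptor signaling were called in 25, 22, 19 and 21 cases in the male lists and in 18, 24, 28 and 25 in the female lists. Of all protein-coding genes, 54.9%, 31.8%, 32.0% and 35.5% were called in the male lists and 29.5%, 54.3%, 69.9% and 62.5% in the female lists. All 8 lists had a start peak for 15 of the 28, beside 16.7% of all genes. Of 8 chaperones and cochaperones, which fold the receptors for hormone binding, 6 had one in all lists, and of 8 other coactivators 3. Of 6 corepressor genes 5 had one in all lists. The receptors Esr2 and Pgr and the enzyme gene Cyp19a1 had a start peak at female day 6 alone. That is the longest list, in which 69.9% of all genes were called. The share of all genes called in that list alone was not counted. Hsd11b2, which encodes the enzyme that inactivates glucocorticoid, had a start peak in male vehicle and at female days 6 and 8, the same 3 lists as Hsd11b1. This pattern was shared by 2.63% of all genes. Ncoa3 matched Esr1 in 8 of 8 lists, a pattern of 1.17% of genes. For Nr3c2 and Ncoa1 the closest were Crebbp, Fkbp5 and Srd5a1, each of which had the same call as either gene in 7 of 8 lists. Fkbp5, a cochaperone and a well-known glucocorticoid target, had a start peak in male vehicle and at female days 4, 6 and 8. Bag1, Dnajb1 and Ep300 were the first by alphabet of the 15 genes that matched Nr3c1, Ncoa2 and Ncor1 in 8 lists.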

How the data were processed

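H3K27ac was measured in 16 libraries and input in 8, and the data used were 8 peak lists, each matched to a group by its name. Per the study's methods, the authors used homerTools for trimming, Bowtie2 (2.2.6 in the submitters' processing notes) for alignment to mm10, and called peaks against input with HOMER findPeaks, histone style, at a fold over input of at least 2. Whether and how libraries were pooled is not given in the sources used here. The deposited normalized tag count is a signal scaled by the authors to 10 M tags. The deposited total tags are a count for 2 lists (male day 4 and female day 6) and scaled to input for the other 6. The input tags were deposited the other way round, with 0.5 written for none. The deposited findPeaks score and the deposited ratio to input (fold) were taken unaltered. The deposited p-value was not used.

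Depth was worked out from raw and normalized tags or, where only normalized values were given, from their smallest step. In all 8 lists, 100% of values below 10 normalized tags were whole tags at that depth, within a tolerance of 0.024 to 0.045 tags by list. Where depth came from the smallest step, these same values had set it, so the share does not check it independently. Peaks were assigned by curated RefSeq models of GRCm38.p6 (mm10), with an overlap of at least 1 bp, 10 kb around starts for the gene rule and 1 kb for a start. Tags as counted (normalized tags times depth) gave exact 95% Poisson intervals, and percentages have exact Clopper-Pearson intervals. PCR duplicates are not independent, so intervals cover counting error only. Groups were compared without a test or p-value. The 7 genes, the 28 pathway genes, the markers and the alternatives were chosen with earlier results of these data known. The text names all 7 genes with the regions at their starts, up to 3 other regions in the most lists, and regions with a PRE present at both later days, and of the pathway genes up to 3 per gene by agreement of start calls. G0s2, Pigl and Gm10649 were named after their values were seen, because peaks of the members lie over them, as were Esr2, Pgr, Cyp19a1 and the 4 regions in female lists alone. The level against the 3499 genes, the lists cut by normalized tags and the count without G0s2 peaks were added after the data were seen. Overlaps were tested on simulated data, and 900 of 900 peaks matched bedtools and 3 of 3 depths were recovered. Python 3.11.15, pandas 2.3.3, scipy 1.17.1, pysam 0.24.0 and matplotlib 3.10.9 were used.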

Additional observations from a re-analysis of the deposited data

Results flagged for a closer look

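For 5 of the 7 genes, the number of peaks was lower at day 4 than in vehicle in males and higher at day 4 than in vehicle in females. Nr3c1 had 4 peaks in male vehicle and 2 at male day 4, and 9 in female vehicle and 12 at female day 4. Nr3c2 had 10 and 2 in males and 7 and 16 in females. Hsd11b1 had 2 and 0 in males and 1 and 3 in females. Ncoa1 had 7 and 2 in males and 3 and 6 in females. Ncor1 had 3 and 2 in males and 3 and 5 in females. The exceptions were Esr1, with 9 and 3 in males and 11 and 11 in females, and Ncoa2, with 12 and 2 in males and 6 and 5 in females. With every list cut to 17482 peaks, by findPeaks score or by normalized tags, 0 of the 7 genes showed this pattern and 2 moved the opposite way in both sexes under either cut (Nr3c2 and Ncor1 by score, Esr1 and Nr3c1 by normalized tags), and with a fold over input of at least 4 it was seen in 4. The fold setting acted unevenly between lists. It kept 39 of 40 peaks at the 7 genes in female vehicle and 44 of 58 at female day 4. Among all peaks, 29.0% in female vehicle had no input tags, beside 1.27% at female day 4. With 1 list per group the difference between the sexes was not tested. The whole lists moved the same way, from 87600 peaks to 17482 in males and from 38861 to 67503 in females, and H3K27ac depth went from 31.6 to 7.52 M tags in males and from 27.5 to 49.0 M in females. At the 5057 genes of the length range, the median peak count went from 4 to 1 in males and 2 to 4 in females. The share of all genes with this pattern was not counted.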

How the results depend on the processing

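No paired analysis was possible because each group has 1 peak list and no test was made. Joining peaks within 1 kb, dropping the flank, widening it to 25 kb, adding predicted transcripts, taking starts within 5 kb and asking for 50% coverage of a day 4 peak left all counts within 1.5 times. Cutting lists to 17482 peaks by findPeaks score changed the peaks at the 7 genes to 9 in male vehicle, 13 at male day 6, and 14, 16, 18 and 15 in the female lists. Cutting by normalized tags instead, an alternative chosen after seeing the data, gave 8, 12, 17, 13, 8 and 10. Start calls went to 4 genes in male vehicle by either cut and, by score, to 2 at female day 4 and 4 at female day 8. Nr3c1 and Ncor1 had a start peak in 6 lists by score and 8 by normalized tags, and Hsd11b1 in 1 and 0. The score is loosely tied to tags (Spearman 0.463 to 0.724 across the peaks of a list), and the Nr3c1 start peak ranked at the 19.2 percentile by score in male vehicle and the 99.9 percentile at male day 6. With the start base required, 4 genes were counted in male vehicle and 0 in female vehicle. Male PREs went to 10 (score), 8 (tags) and 3 (peaks within 1 kb shared), and female PREs to 13 (score) and 5 (tags). Male PREs present at day 6 went to 4 and at day 8 to 3 by score. Female PREs present at day 6 went to 3 (score), 1 (tags) and 8 (fold of at least 4), and at day 8 to 2, 1 and 8. Fewer peaks enter under each cut. Subtracting input moved 15 of 44 start levels beyond their counting interval. Male day 4, with 7.52 M tags, limits every comparison made with it.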
